A study of Mus musculus with 2 samples.

Results

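The Mir181 family of the mouse comprises 6 microRNA genes at 3 loci, each locus holding 1 a or c gene beside 1 b or d gene. The 6 genes were picked by symbol, as the rows whose Ensembl identifier carries that symbol in the GENCODE mouse annotation. They are 6 of the 1973 genes counted in the series. Livers of B6NCrl embryos, an inbred C57BL/6 substrain, were collected at embryonic day 11.5 and their RNA of fewer than 30 nucleotides was sequenced. Both libraries came from healthy embryos of both sexes with no treatment named and form 1 group, so no condition was compared. Replicate 1 was a pool from 109 embryos and replicate 2 a pool whose size is not given in the sources used here. Pools hide differences between embryos, and RNA of the whole organ has no record of its cell of origin. Fewer cells of a type and less RNA per cell cannot be told apart.

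A microRNA precursor folds into a hairpin from which a 5p and a 3p mature arm can be cut, and bases 2 to 8 of a mature arm, the seed, select the messenger RNAs it represses. In mice, miR-181a is known from lymphocyte development, where it sets the sensitivity of thymocytes to antigen, and the chromosome 1 locus is needed for natural killer T cells. In humans, miR-181 is known from liver cancer cells with progenitor traits. At day 11.5 the liver grows as an epithelium while blood cells form within it.

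The 5p arms are shown because all 6 genes share their seed, while only some of the arms can be told apart. Sequences are RefSeq's on GRCm38.p6, 5′ to 3′, and capitals mark the seed. The Mir181a-1 and Mir181a-2 precursors both carry miR-181a-5p, and Mir181b-1 and Mir181b-2 both carry miR-181b-5p.
miR-181a-5p: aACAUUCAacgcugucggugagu
miR-181b-5p: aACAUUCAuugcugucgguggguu
miR-181c-5p: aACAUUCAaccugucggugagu
miR-181d-5p: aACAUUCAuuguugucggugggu

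Of 1738 mature entries in the RefSeq table, 6 had the seed ACAUUCA, and all 6 belonged to this family. Counted from 1 at the 5′ end, miR-181d-5p differs from miR-181b-5p by C12U and by ending 1 base earlier. miR-181c-5p is 1 edit from miR-181a-5p, a base missing after the seed. From miR-181a-5p to miR-181b-5p the substitutions are A9U, C10U and A21G. The family thus has 4 distinct 5p arms with 1 seed.

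The 3p arms differ from gene to gene, which makes them the mature arms of the a and b precursors that tell the copies apart. Capitals again mark bases 2 to 8.
miR-181a-1-3p: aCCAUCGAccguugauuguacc
miR-181a-2-3p: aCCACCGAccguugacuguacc
miR-181b-1-3p: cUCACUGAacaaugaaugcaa
miR-181b-2-3p: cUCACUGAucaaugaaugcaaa
miR-181c-3p: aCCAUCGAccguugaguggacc
miR-181d-3p: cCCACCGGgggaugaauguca

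These 6 arms fall into 4 seeds. Mir181a-1 and Mir181c share one, Mir181b-1 and Mir181b-2 share another, and those of Mir181a-2 and Mir181d stand alone within the family. miR-181a-1-3p and miR-181a-2-3p differ by U5C, inside the seed, and by U16C. The 3p arms of Mir181b-1 and Mir181b-2 differ by A9U, and that of Mir181b-2 is 1 base longer.

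Whether a read can be assigned to a gene depends on these differences, because reads that map to several places were set apart by the authors and not counted. There were 2804637 such reads in replicate 1 and 1234115 such reads in replicate 2, from all genes and all other places together. The whole 5p arm of 4 genes, Mir181a-1, Mir181a-2, Mir181b-1 and Mir181b-2, also lies in another counted precursor. No 3p arm of the family does, and neither arm of Mir181c or Mir181d does. The precursors of the copies are printed with capitals for the longest run that both copies share, 28 bases in the a copies and 26 in the b copies.
Mir181a-1: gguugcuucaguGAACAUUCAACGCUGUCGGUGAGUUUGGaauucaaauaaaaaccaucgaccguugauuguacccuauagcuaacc
Mir181a-2: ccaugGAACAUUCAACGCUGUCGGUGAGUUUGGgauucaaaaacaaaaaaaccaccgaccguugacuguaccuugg
Mir181b-1: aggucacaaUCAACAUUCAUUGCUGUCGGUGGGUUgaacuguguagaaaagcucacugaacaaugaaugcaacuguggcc
Mir181b-2: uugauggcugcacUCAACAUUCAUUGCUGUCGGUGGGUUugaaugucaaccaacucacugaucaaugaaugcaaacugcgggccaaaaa

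Counted from the first base of the 5p arm, the a copies first differ at base 28 (A28G, Mir181a-1 to Mir181a-2). A read that starts there must therefore run 5 bases past the end of miR-181a-5p to be told apart. The b copies differ at base 25 (G25U, Mir181b-1 to Mir181b-2), 1 base past the end of miR-181b-5p. Toward the 5′ side, the copies part 2 bases before the arm in the a genes and 3 bases before it in the b genes. Reads that hold no more than the shared 5p arm match both copies, so the levels of these 4 genes can be too low. The reads themselves were not used here, so the arm each counted read came from is not known.

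**Figure D1:**
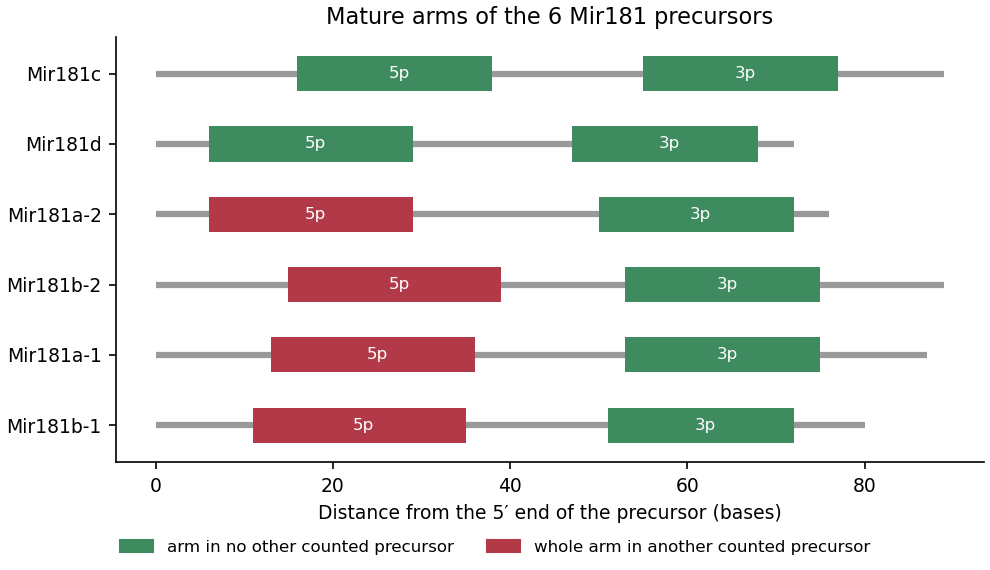
The 6 Mir181 precursors drawn to scale, with distance from the 5′ end in bases on the horizontal axis and boxes for the mature 5p and 3p arms. Boxes in red are arms found whole in another counted precursor, which are the 5p arms of 4 genes, and both arms of Mir181c and Mir181d are green, for arms found in no other one.

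Replicate 1 held 3344673 reads assigned to microRNA genes and replicate 2 held 1584499. Levels are counts per 1000000 assigned counts (CPM) on the strand of the gene, and 1 read is worth 0.299 CPM in replicate 1 and 0.631 CPM in replicate 2. All 6 genes were detected, meaning at least 10 counts in both libraries, as were 347 of all 1973. Reads on the strand opposite to these 6 genes numbered 0. Mir122, the defining hepatocyte marker, averaged 32583 ± 2693 CPM (SD, n = 2). Of 5 counted neural markers, 3 had 0 counts in both libraries and none reached 10 counts in both. Each neural marker is known to share a mature arm with another locus, and reads that map to several places were not counted. These low counts therefore cannot show whether neural RNA was present.

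The genes of the chromosome 8 locus, both of whose arms are unique, had the highest levels of the family in each library. Mir181d (ENSMUSG00000076338.1) had 15855 counts (4740 CPM) in replicate 1 and 4775 counts (3014 CPM) in replicate 2, a mean of 3877 ± 1221 CPM (SD, n = 2). Mir181c (ENSMUSG00000065483.1) had 13921 counts (4162 CPM) in replicate 1 and 5398 counts (3407 CPM) in replicate 2, a mean of 3784 ± 534 CPM (SD, n = 2). Mir181d stood above Mir181c in replicate 1 and below it in replicate 2, so the order of this pair was not resolved. Mir181c and Mir181d lie 85 bases apart on the minus strand of mm10, at 84178873 to 84178961 and at 84178716 to 84178787. Both sit in an intron of Nanos3, on the same strand; Nanos3 encodes an RNA-binding protein of germ cells.

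The chromosome 2 locus was counted almost entirely through Mir181b-2. Mir181b-2 (ENSMUSG00000065578.1) had 3939 counts (1178 CPM) in replicate 1 and 1127 counts (711 CPM) in replicate 2, a mean of 944.5 ± 330 CPM (SD, n = 2). Mir181a-2 (ENSMUSG00000065423.1) had 151 counts (45.1 CPM) in replicate 1 and 148 counts (93.4 CPM) in replicate 2, a mean of 69.3 ± 34.1 CPM (SD, n = 2). Mir181a-2 made up 3.69% of the counts of its locus in replicate 1 (95% exact Clopper-Pearson interval 3.14 to 4.32) and 11.6% in replicate 2 (9.90 to 13.5). Mir181a-2 and Mir181b-2 lie 1019 bases apart on the plus strand, at 38852735 to 38852810 and 38853830 to 38853918, within an intron of Nr6a1, an orphan nuclear receptor gene on the opposite strand. Mir181b-2 also lies in an exon of Gm44144 on the opposite strand.

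At the chromosome 1 locus the balance was turned round, with nearly all counts at the a gene. Mir181a-1 (ENSMUSG00000065565.1) had 1564 counts (468 CPM) in replicate 1 and 1118 counts (706 CPM) in replicate 2, a mean of 587 ± 168 CPM (SD, n = 2). Mir181b-1 (ENSMUSG00000065458.1) had 75 counts (22.4 CPM) in replicate 1 and 23 counts (14.5 CPM) in replicate 2, a mean of 18.5 ± 5.59 CPM (SD, n = 2). Mir181a-1 made up 95.4% of the counts of its locus in replicate 1 (95% exact Clopper-Pearson interval 94.3 to 96.4) and 98.0% in replicate 2 (97.0 to 98.7). Mir181a-1 and Mir181b-1 lie 97 bases apart on the plus strand, at 137966455 to 137966541 and 137966639 to 137966718. Both lie in an intron of the noncoding Gm4258 on the same strand. Mir181b-1 lies whole within exon sequence of A430106G13Rik, a long noncoding RNA gene whose exons Mir181a-1 overlaps by 11 bases.

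**Figure D2:**
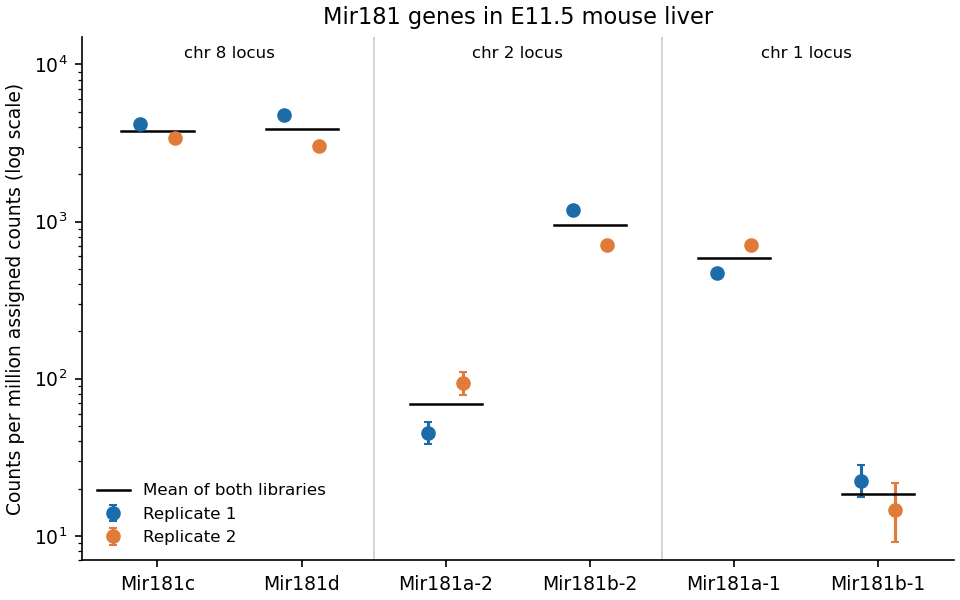
CPM of each Mir181 gene (log axis) in replicate 1 (blue) and replicate 2 (orange), with 95% exact Clopper-Pearson intervals that cover counting error only, and a black line at the mean. Mir181c and Mir181d stand highest in both libraries, between 3014 and 4740 CPM, and Mir181b-1 lies lowest, at 22.4 and 14.5 CPM.

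Between copies of the same 5p arm, the higher gene sat at opposite loci. Mir181a-1 on chromosome 1 held 10.4 times the counts of Mir181a-2 on chromosome 2 in replicate 1 (95% exact binomial interval 8.76 to 12.3) and 7.55 times in replicate 2 (6.36 to 9.03). Mir181b-2 on chromosome 2 held 52.5 times the counts of Mir181b-1 on chromosome 1 in replicate 1 (41.8 to 66.9) and 49.0 times in replicate 2 (32.5 to 77.6). The intervals of the 2 libraries overlapped for both ratios. Reads that hold no more than the shared 5p arm match both copies and can be in neither side of these ratios, while longer 5p reads and 3p reads can be in them.

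Ordered by mean CPM, the genes ran Mir181d, Mir181c, Mir181b-2, Mir181a-1, Mir181a-2 and Mir181b-1, at ranks 55, 56, 115, 139, 230 and 292 of all counted genes. Apart from Mir181d and Mir181c, the values of neighbours in that order did not overlap over the libraries. Mir181b-2 and Mir181a-1 nearly met in replicate 2, at 711 CPM (95% interval 670 to 754) and 706 CPM (665 to 748), so their order there was within counting error. Mir181b-2 was 2.52 times Mir181a-1 in replicate 1 and 1.01 times in replicate 2. In mean CPM the leading gene of each locus stood among genes of other families. Mir342, a leukocyte microRNA, lay just above Mir181d, Mir302b and Mir669o lay above and below Mir181b-2, and Mir148b and Mir410 lay above and below Mir181a-1.

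**Figure D3:**
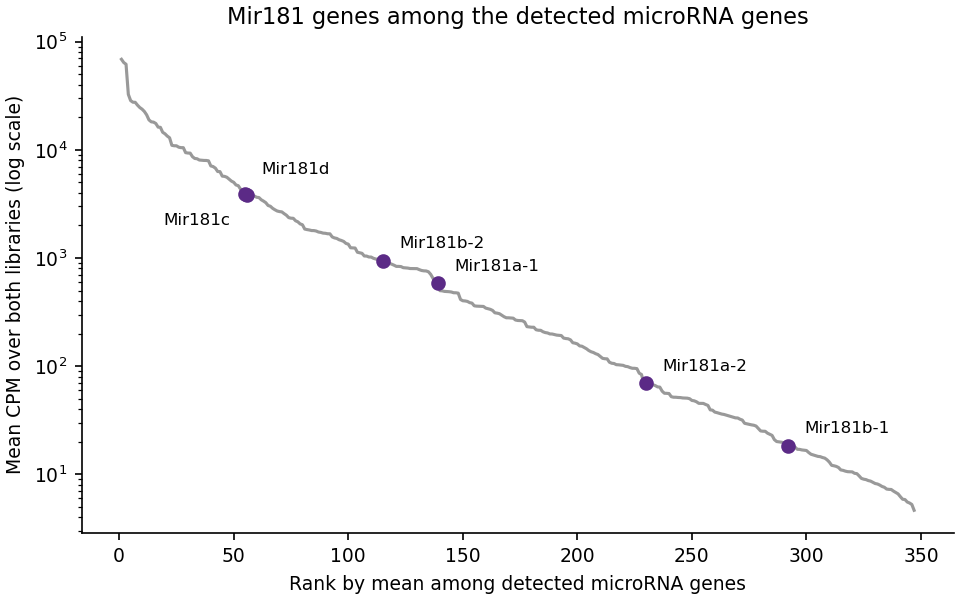
Mean CPM over both libraries (log axis) against rank for the 347 detected microRNA genes (grey line), with the 6 Mir181 genes as purple points. Mir181d and Mir181c stand at ranks 55 and 56, and Mir181b-1 at 292.

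Together the 6 genes had 35505 counts in replicate 1 and 12589 in replicate 2, which is 1.06% (95% exact Clopper-Pearson interval 1.05 to 1.07) and 0.795% (0.781 to 0.809) of assigned counts. By locus, Mir181c with Mir181d held 83.9% of the family's counts in replicate 1 (83.5 to 84.2) and 80.8% in replicate 2 (80.1 to 81.5), a mean of 82.3 ± 2.16% (SD, n = 2). Mir181a-2 with Mir181b-2 held 11.5% in replicate 1 (11.2 to 11.9) and 10.1% in replicate 2 (9.61 to 10.7). Mir181a-1 with Mir181b-1 held 4.62% in replicate 1 (4.40 to 4.84) and 9.06% in replicate 2 (8.57 to 9.58). The chromosome 8 locus led in both libraries by far more than these intervals, while the chromosome 1 and chromosome 2 loci lay closer in replicate 2 than in replicate 1. Intervals cover counting error only.

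**Figure D4:**
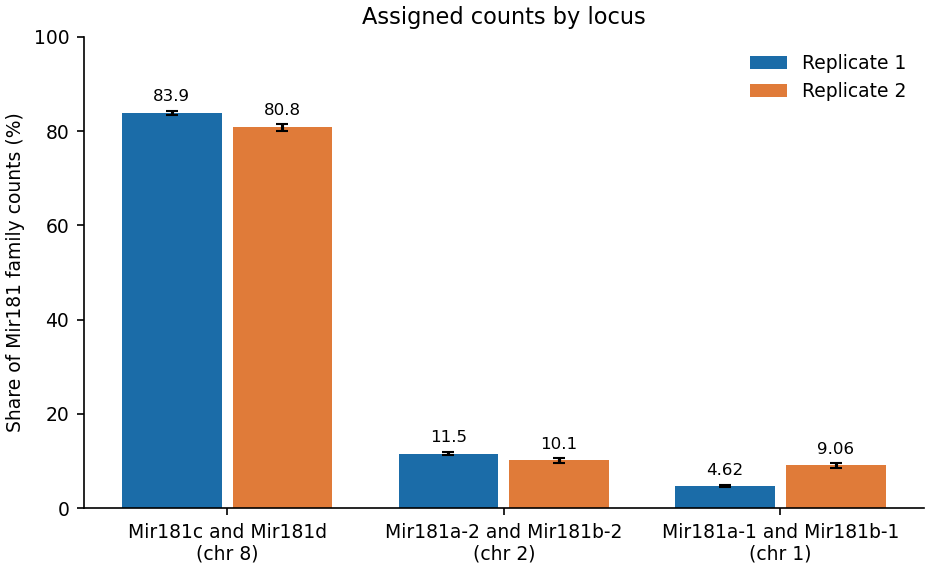
Share of the Mir181 family's assigned counts (%) at each of the 3 loci in replicate 1 (blue) and replicate 2 (orange), with 95% exact Clopper-Pearson intervals. The locus of Mir181c and Mir181d holds 83.9% and 80.8%, and each other locus holds between 4.62% and 11.5%.

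The counts of Mir181c with Mir181d were 7.28 and 7.98 times those of Mir181a-2 with Mir181b-2 in replicates 1 and 2, a log2 ratio of 2.93 ± 0.09 (SD, n = 2). Against Mir181a-1 with Mir181b-1 they were 18.2 and 8.92 times as high, a log2 ratio of 3.67 ± 0.73. Mir181a-2 with Mir181b-2 held 2.495 and 1.117 times the counts of Mir181a-1 with Mir181b-1, a log2 ratio of 0.74 ± 0.82 whose mean is below its SD. An exact two-sided sign-flip permutation test gave p = 0.5 for each of these 3 comparisons, also after Benjamini-Hochberg adjustment, which is the smallest p that 2 libraries allow. Among the counted precursors, the chromosome 8 locus is the 1 locus whose 5p arms both occur nowhere else, so the ratios compare assigned reads, which may differ from the output of the loci.

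The same limit was looked for in the other counted genes with mature entries in RefSeq, as a description. Of 916 such genes, 53 had 1 of 2 arms whole in another counted precursor, as the a and b genes do, and 819 had none, as Mir181c and Mir181d do. Detected genes numbered 34 among the 53, with a median mean level of 61.6 CPM, and 272 among the 819, with a median of 359 CPM. Mir181b-2, Mir181a-1 and Mir181a-2 lay above the first of these medians, and Mir181b-1 lay below it. The remaining 44 genes had every arm in another counted precursor, and 5 of them were detected, with a median of 95.6 CPM. A second list was meant to hold genes known to share a mature arm with another locus, the 4 a and b genes included. It also held Mir101a, Mir101b, Mir153 and Mir190a, which were not listed as numbered copies, so it is a mixed list. Of its 60 counted genes, 41 were detected with a median of 86.1 CPM, which is the level of Mir101a, against 264.5 CPM over all 347 detected genes. Its highest genes were Mir92-1 at 8276 ± 191 CPM and Mir16-1 at 3742 ± 52.6 CPM (SD, n = 2).

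Between the pools, both a genes had their higher level in replicate 2 and the other 4 genes in replicate 1. The size of these differences was set against counting noise by an exact binomial test on edgeR's effective library sizes, adjusted by Benjamini-Hochberg over 454 genes. This test has no term for spread between pools and compares 2 libraries, not conditions. A call needed an adjusted p under 0.05 together with a ratio of 2-fold or more, which 7.27% of the tested genes met (2.42% higher in replicate 1, 4.85% higher in replicate 2). Mir181a-2 was the 1 member called, higher in replicate 2, with a log2 ratio of replicate 1 over replicate 2 of -1.11 (95% exact interval -1.45 to -0.77; adjusted p = 1.85e-10). Mir181a-2 lost its call (adjusted p = 0.379) in edgeR's exact test once a biological coefficient of variation of 0.2 was assumed. An adjusted p under 0.05 at any fold was reached by 5 of the 6 members and by 49.1% of the tested genes, and together with 1.5-fold by 4 members and 21.1% of the genes.

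Of the genes not called, Mir181a-1 also had its higher level in replicate 2, with a log2 ratio of -0.66 (-0.77 to -0.54). Mir181b-2 had 0.67 (0.57 to 0.76), Mir181d 0.59 (0.55 to 0.64) and Mir181c 0.23 (0.18 to 0.27), each higher in replicate 1. The adjusted p of the exact binomial test ran from 9.99e-145 to 1.7e-22 for these 4 genes, all under 2-fold. Mir181b-1, with 98 counts in all, had 0.54 (-0.12 to 1.31) and an adjusted p of 0.177. The median size of the log2 ratio was 0.62 over the 6 members and 0.42 over all 454 genes. edgeR's tagwise biological coefficient of variation was 0.225 for Mir181c, 0.315 for Mir181a-2 and between these for the other 4 members, against a common value of 0.260.

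**Figure D5:**
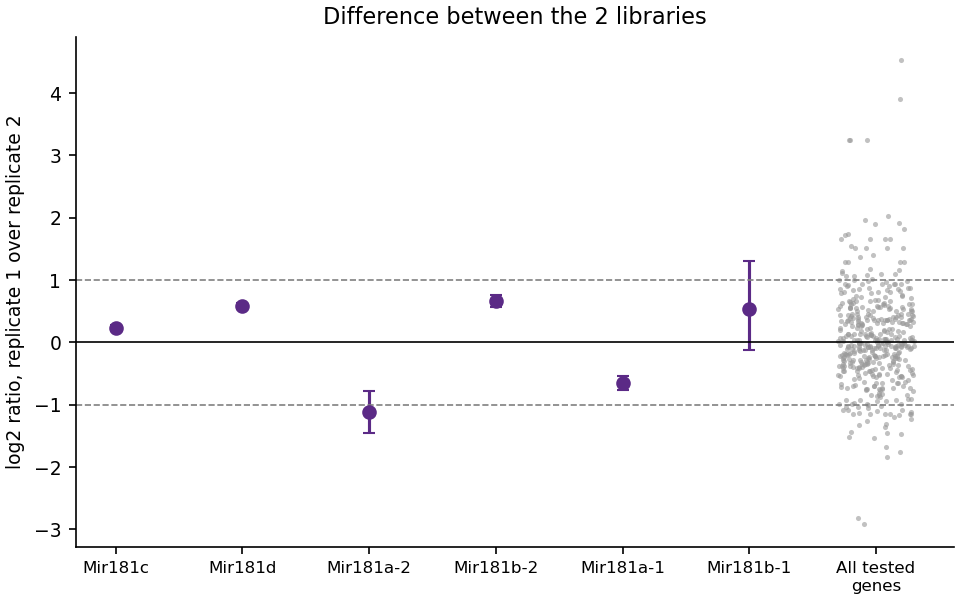
log2 ratio of replicate 1 over replicate 2 for the 6 Mir181 genes (purple, with 95% exact binomial intervals) and for all 454 tested genes (grey, spread sideways for sight). Dashed lines mark a 2-fold difference, which Mir181a-2 passes with a ratio of -1.11, while Mir181c, Mir181d, Mir181b-2 and Mir181b-1 lie above 0.

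Within a locus, the ratio of the a gene to the b gene was higher in replicate 2 at both loci. Mir181a-1 had 20.9 times the counts of Mir181b-1 in replicate 1 and 48.6 times in replicate 2. Mir181a-2 had 0.0383 times the counts of Mir181b-2 in replicate 1 and 0.131 times in replicate 2. The ratio of Mir181c to Mir181d was 0.878 in replicate 1 and 1.13 in replicate 2. The a and c genes thus held a larger part of their locus in replicate 2 in 3 of 3 loci, a pattern noticed after the values were seen and not tested.

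Among the marker lists of liver cell types and other tissues, some sums differed between the pools. The 4 counted leukocyte markers summed to 1.01% of counts in replicate 1 and 0.794% in replicate 2. Of these, 3 were detected, Mir342, Mir223 and Mir150, and the other had too few counts to be tested. Mir150 had 41.0 and 28.4 CPM in replicates 1 and 2. Mir342 had 5077 and 2819 CPM in replicates 1 and 2, while the myeloid Mir223 had 4934 and 5087 CPM. The 2 erythroid markers, Mir451a and Mir144, summed to 0.795% in replicate 1 and 1.10% in replicate 2, and Mir144 was called higher in replicate 2 (log2 ratio -1.46). The 5 mesenchymal and smooth muscle markers summed to 2.20% and 3.29% in replicates 1 and 2, with a median log2 ratio of -0.07. Of these, only the smooth muscle Mir143 was called, higher in replicate 2 (log2 ratio -1.10). The other smooth muscle marker, Mir145a, had 475 and 478 CPM in replicates 1 and 2 (log2 ratio -0.07). Mir214 had 9911 and 8782 CPM, Mir199a-2 had 110 and 80.8 CPM, and Mir199a-1 had 8.67 and 8.84 CPM in replicates 1 and 2. The endothelial Mir126a made up 5.74% and 8.01% of counts in replicates 1 and 2, and was not called. The 4 hepatocyte markers summed to 3.30% and 3.69%, most of it Mir122 at 30679 and 34487 CPM. Mir192 had 928 and 1560 CPM in replicates 1 and 2 (log2 ratio -0.81). Mir194-2 had 1423 and 814 CPM (log2 ratio 0.74), and neither gene was called. Mir194-1 was called higher in replicate 1 (log2 ratio 1.37), but its 48 and 8 counts fell short of detection. Mir194-1 and Mir194-2 are also known to share a mature arm. The 4 counted striated muscle markers summed to 0.0497% and 0.0485%. Of these, 2 were detected, Mir208b and Mir499, and 2 had 0 counts in both libraries. The latter are known to share a mature arm with another locus, so their counts can be too low. The part of these markers in the ratios of the Mir181 genes was not tested. Of 23 counted genes on a list of microRNAs known from blood cells and their precursors, 21 were detected and tested. None of the 21 was called higher in replicate 1, against 2.42% of all tested genes, and 1, Mir144, was called higher in replicate 2, against 4.85%, so these counts are near the background.

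Over both libraries, the 3 detected genes whose pair of log2(CPM + 1) values lay nearest to that of Mir181d were Mir342 at a distance of 0.138, Mir139 at 0.201 and Mir351 at 0.229. Mir342 stood at 5077 CPM in replicate 1, against 2819 CPM in replicate 2. Mir351 had 5240 and 3407 CPM in replicates 1 and 2, and Mir139 had 4250 and 3286 CPM. With 2 libraries this likeness is little more than a like level and a like ratio.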

How the data were processed

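Per the deposited description of the files, reads were aligned to mm10 and counted on GENCODE M4. The aligner and counter are not given in the sources used here. The deposited counts are whole reads per gene, not normalised, in 3 columns (either strand, strand of the gene, opposite strand). The strand of the gene was used. The 4 summary classes stayed out of library sizes and tests, and unassigned reads outnumbered assigned ones, which were 26.2% of reads in replicate 1 and 29.0% in replicate 2.

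Symbols, coordinates and precursor sequences came from GENCODE M21 (also mm10), which matched 1894 of 1973 identifiers without their version. All 6 members matched, with 12 mature entries in the RefSeq table. Mir181c was counted as ENSMUSG00000065483.1 but placed by ENSMUSG00000065483.2, so the interval counted may differ from the one printed. Shared arms were sought on the same strand of the 1894 precursors, not in the whole genome. No length correction was applied, on the assumption that reads are mostly mature arms and not fragments spread over the precursor. The reads were not used to check this.

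With 1 group, edgeR's quasi-likelihood test has no coefficient to test. Library sizes were scaled by TMM (trimmed mean of M values) in edgeR 4.0.16, R 4.3.3. Genes with at least 10 summed counts were tested by the exact binomial test, with 0.5 added for the log2 ratio. DESeq2 1.42.0 gave alternative size factors. The procedure was tested on counts simulated with counting noise only, which cannot show how it behaves with spread between pools. Other work used Python 3.11.15, scipy 1.17.1 and pandas 2.3.3. Intervals cover counting error only, since no molecular identifiers are described, and a count of 0 allows up to 3 counts (0.897 CPM in replicate 1, 1.89 CPM in replicate 2).

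The labels call the libraries biological replicates, but nothing describes the pools further, so the spread between them may be in part technical. The members, lists and tests were chosen with earlier results of these data known. The genes named were the members, the neighbours in level of each locus's leading gene, the 3 genes nearest Mir181d, list leaders and any gene with the same seed, of which there was none outside the family. Alternatives covered the scaling, the filter, the fold, the strand column, the denominator, the noise model and the libraries averaged.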

Additional observations from a re-analysis of the deposited data

How the results depend on the processing

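No paired analysis between conditions was possible because the libraries form a single group, while the loci were compared within each library. With 1 gene per locus (Mir181c, Mir181a-2 and Mir181a-1) the loci on chromosomes 8, 2 and 1 held 85.0%, 1.59% and 13.4% of these counts, against 82.3%, 10.8% and 6.84% with all 6 genes, so the order of the chromosome 2 and chromosome 1 loci turned. Fewer genes were counted by construction, and Mir181a-2 is the lower gene of its locus while Mir181a-1 is the higher gene of its own. The turn follows from that choice of genes. Between the leading genes, Mir181b-2 averaged 944.5 CPM and Mir181a-1 587 CPM, the order seen with all 6 genes. At 1.5-fold, 4 members were called (Mir181a-1, Mir181a-2, Mir181b-2 and Mir181d) in place of 1, and 96 of 454 genes (21.1%) in place of 33. Assuming a biological coefficient of variation of 0.2, edgeR's exact test called 0 members and 1 gene in all, with 1 member and 51 genes at an unadjusted p under 0.05. From 100 summed counts, 16 of 285 genes were called. Mir181a-2 stayed the 1 member called under total-count scaling (34 of 454 genes called) and DESeq2 scaling (33 of 454). The same held with reads of either strand (35 of 463 genes called) and for filters of 1 (30 of 724) and 100 summed counts. The family's share was 1.06% without replicate 2 and 0.795% without replicate 1, and 0.843% with reads of either strand. Dividing counts by precursor length, added after seeing the data, gave the chromosome 8 locus 83.7%. Depth limits Mir181b-1 most, with 75 and 23 counts.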
